A study of Mus musculus with 6 samples.

Results

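The genes described here are named as nuclear subunits of respiratory complex I, the NADH dehydrogenase of the mitochondrial inner membrane. They were the genes whose probe set carried a single symbol beginning with Ndufa, Ndufb, Ndufc, Ndufs or Ndufv and a digit, or Ndufab1, with the assembly factors of the Ndufaf series left out. Where several probe sets carried the symbol, the brightest over all 6 arrays stood for the gene. This gave 36 genes of the 19938 genes that could be named, from 41 probe sets of 35557. Of the 36, Ndufa4 and Ndufa4l2 are named like subunits but are not counted in complex I. The rule used no difference between the groups.

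The 6 arrays measured RNA of tibialis anterior, a mixed limb muscle, 3 from control C57Bl6J mice and 3 from MLC-SOCS-3/C57Bl6J mice, which carry a SOCS-3 transgene. SOCS-3 is an intracellular inhibitor of cytokine and insulin receptor signalling. All mice were 11 weeks old and starved for 6 h before the muscle was frozen, and 300 ng of RNA was labelled per sample, so both groups share the age, the fast and the C57Bl6J background. The labels give no sex, do not spell out MLC, and do not say which animals or how many founder lines the samples come from. The replicates are numbered within each group with no word on separate animals, so the spread between them may be technical.

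Complex I takes electrons from NADH, passes them through a flavin and a chain of iron-sulphur clusters to ubiquinone, and pumps protons across the inner membrane. Its matrix arm carries out the electron transfer and its membrane arm the pumping. A set of core subunits, shared with bacteria, does the catalysis, while the accessory subunits surround and stabilise it; the core of the membrane arm is encoded by mitochondrial DNA. In skeletal muscle, complex I is most abundant in oxidative fibres.

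Values are log2 intensities after RMA, which equalises the distributions of the arrays and gives 1 value per probe set. A difference is MLC-SOCS-3 minus control on this log2 scale, so 1 would be a doubling; folds of very bright probe sets are compressed. The median probe set lay at 5.99, and all 36 genes lay above it, with means from 7.39 to 13.3. The ends of that range are Ndufa4l2 and Ndufa4, which are not counted in complex I. Without them the means ran from 8.55 (Ndufa7) to 12.9 (Ndufa10). The tissue label was borne out by its markers: the 12 skeletal muscle genes checked, such as Ckm and Acta1, had means of 13.7 to 14.6. Socs3 itself showed no higher signal in the MLC-SOCS-3 group: it read 7.37, 7.41 and 7.43 in controls and 7.07, 7.12 and 7.25 in the other group. Its difference was -0.26 ± 0.07 (moderated SE, limma adjusted p = 0.80). A second, dimmer Socs3 probe set differed by -0.22 ± 0.08 (limma adjusted p = 0.82). On both, every MLC-SOCS-3 array lay below every control, as it did for 7.76% of all genes. Whether the Socs3 probes lie in the part of Socs3 that the transgene carries is not given in the sources used here, so the groups are named as labelled.

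No complex I gene passed the test. With limma over all 35557 probe sets, 0 of the 36 had a Benjamini-Hochberg adjusted p under 0.05 in either direction, and the smallest adjusted p was 0.81. The background was the same, with 0% of the 19938 genes called. At an unadjusted p under 0.05, 1 complex I gene was higher, Ndufc2, against 1.36% of all genes and 0.924% of those with a mean over 10. At the same p, 1 was lower, Ndufa12, against 3.5% of all genes and 0.995% of those with a mean over 10. The median difference of the 36 genes was 0.019, with 24 positive and 12 negative. All 19938 genes had a median of -0.016 with 43.8% positive, and the 1407 genes over 10 had a median of 0.0090 with 55.7% positive. With each array centred on its median, 29 of the 36 were positive and 51.2% of all genes. The median difference was then 0.039 for the 36 genes, 0.0035 for all genes and 0.028 for the genes over 10.

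The size of any difference in array signal was bounded fairly closely, given the spread between these replicates, which may be technical. Folds of very bright probe sets are compressed, so the bounds hold for signal and not for RNA. Each interval covers its own gene, not all 36 together. Every one of the 36 intervals (95%, limma) lay inside a 1.5-fold difference either way, the widest reach being -0.53 for Ndufa12 and 0.41 for Ndufs6. The same held for 92.2% of all genes and 96.9% of those with a mean over 10. Only Ndufa12 differed by more than 0.2 in size, 2.78% of the complex I genes, against 2.91% of the genes with a mean over 10. In whole muscle, fewer cells of a type and less RNA per cell cannot be told apart.

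**Figure D1:**
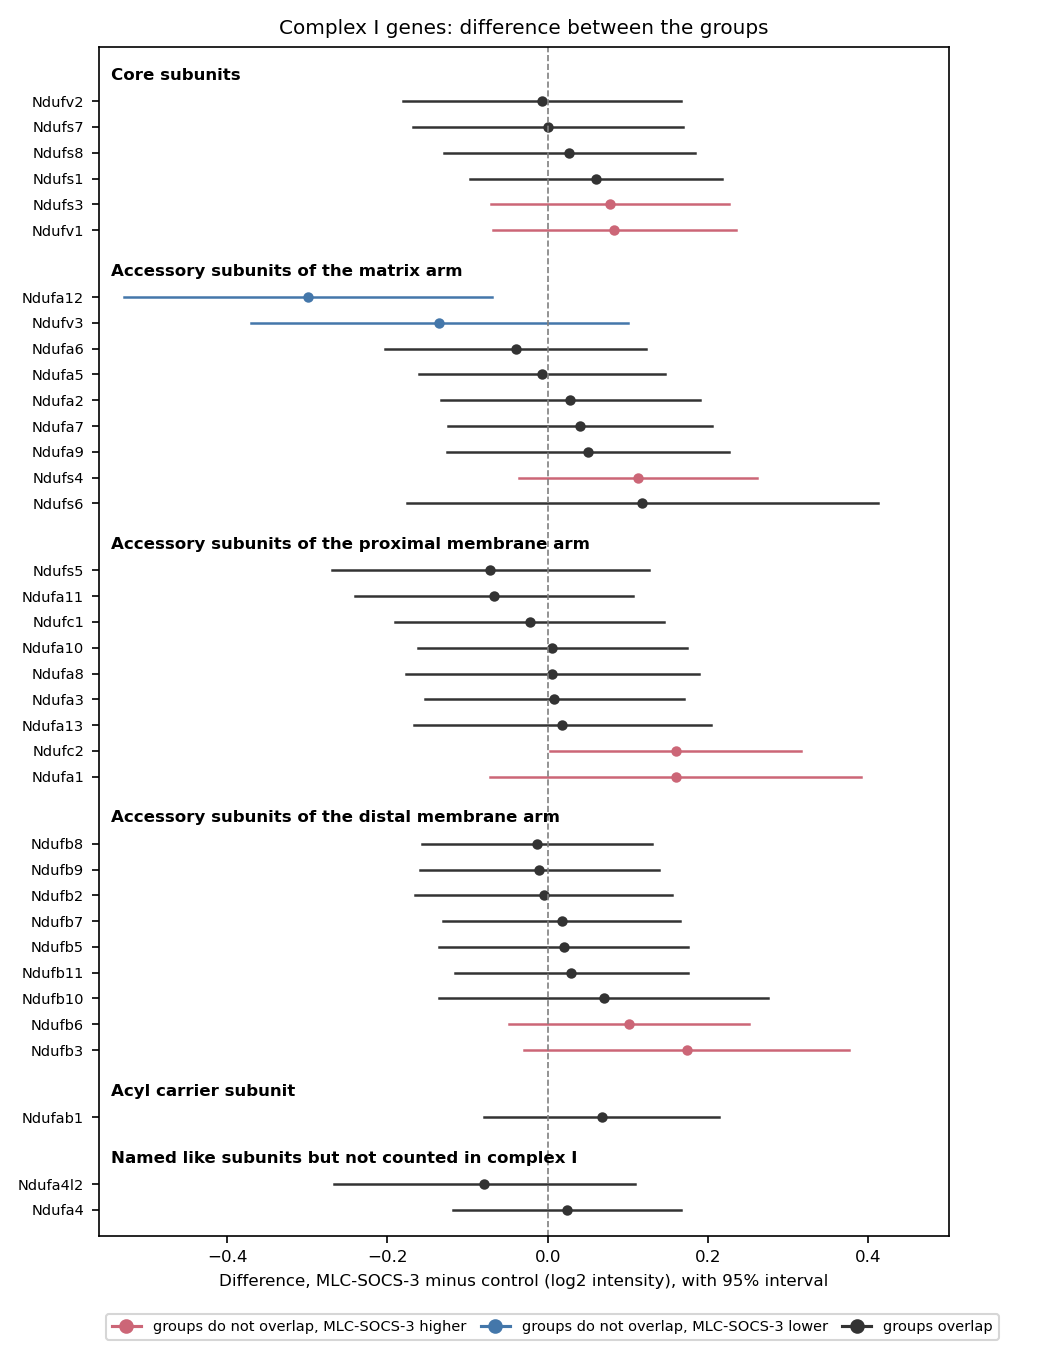
Difference between the groups (x axis, log2 intensity, MLC-SOCS-3 minus control) with its 95% limma interval for each of the 36 genes, ordered within role. Colour marks the 9 genes whose 3 arrays per group do not overlap, 7 higher and 2 lower; the interval leaves out 0 for Ndufa12 and Ndufc2.

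The groups did not overlap for 9 of the 36 genes. In 7 of them the arrays labelled MLC-SOCS-3 were higher, against 4.52% of all genes and 7.68% of those with a mean over 10. In 2 they were lower, against 7.76% of all genes and 6.4% of those with a mean over 10. The 7 were Ndufv1, Ndufs3, Ndufs4, Ndufa1, Ndufc2, Ndufb3 and Ndufb6, and the 2 were Ndufa12 and Ndufv3. The genes share arrays, so their counts are not independent of one another, and none of the 9 passed the adjusted test. Centring each array on its median left the groups overlapping for Ndufv3, and quantile normalization left them overlapping for Ndufv1. With an array left out, 8 to 10 genes were higher. Without control replicate 3 there were 10 (9.74% of all genes, 16.8% of those with a mean over 10). Without MLC-SOCS-3 replicate 1 there were also 10 (9.38% and 14.3%). Between 2 and 7 were then lower. There were 7 without control replicate 2 (14.6% of all genes, 14.2% of those with a mean over 10). There were 6 without MLC-SOCS-3 replicate 2 (12% and 11.3%) and 3 without MLC-SOCS-3 replicate 1 (15.7% and 12.6%).

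**Figure D2:**
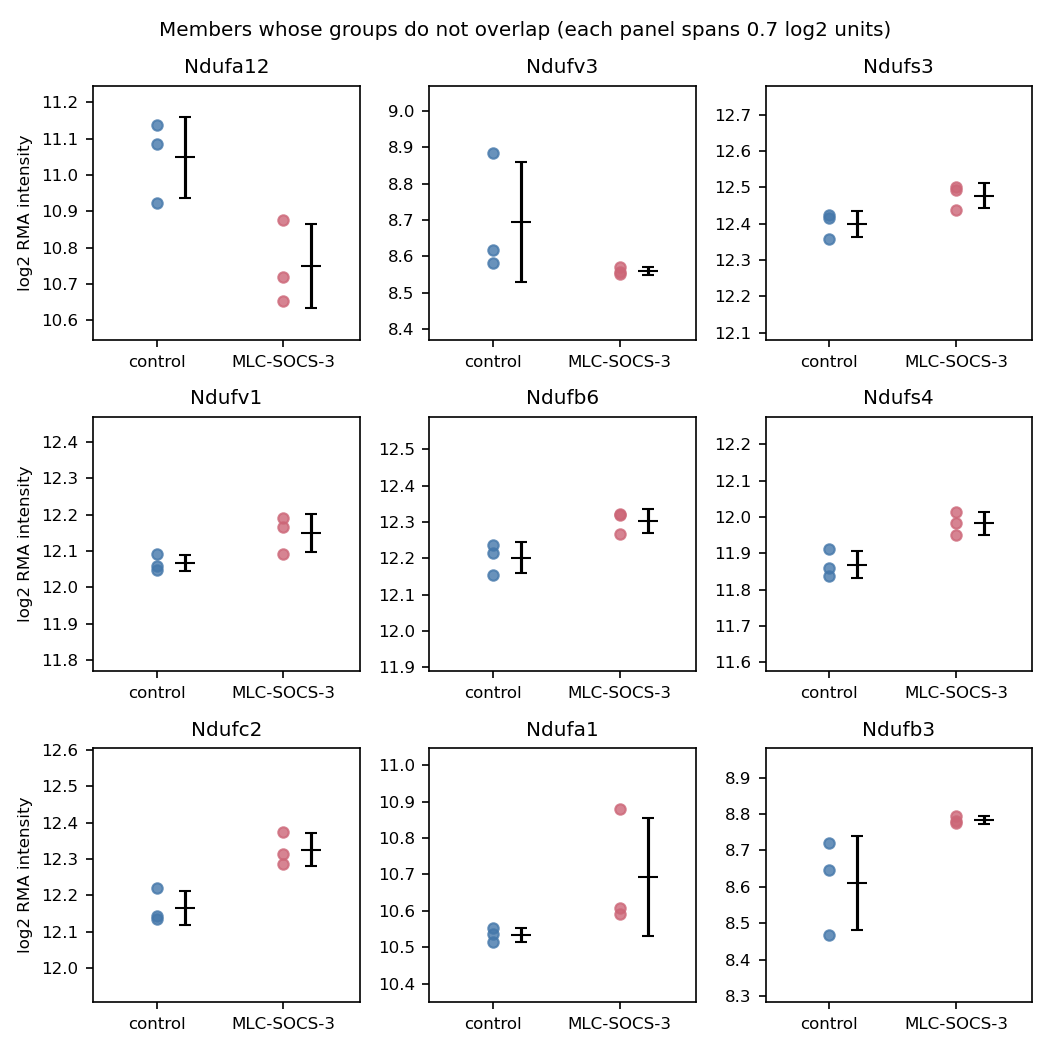
Log2 RMA intensity (y axis) on each array (points) for the 9 genes whose groups do not overlap, with the group mean and SD (n = 3) in black. The y axes cover the same span of 0.7 in each panel but start at different levels; Ndufa12 and Ndufv3 are lower in MLC-SOCS-3 and the other 7 higher.

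Promoter sequences are shown for 4 genes, because all results on these genes are transcript levels and the promoters show what they do and do not share in sequence. RefSeq (GRCm38.p6) gave promoter windows, 250 bases before to 50 after a start, for 32 of the 36 genes, 34 windows in all. They are Ndufa12 and Ndufc2, the genes with the smallest p, Ndufs3, a core subunit measured by a pair of probe sets, and Ndufs5, which holds 2 of the 5 motifs searched. Each line gives the 250 bases before the start, 5′ to 3′, with motif matches on either strand in capitals. They lie at chr10:94198785-94199034 (plus strand), chr7:97399753-97400002 (plus strand), chr2:90904722-90904971 (minus strand) and chr4:123718187-123718436 (minus strand).
Ndufa12: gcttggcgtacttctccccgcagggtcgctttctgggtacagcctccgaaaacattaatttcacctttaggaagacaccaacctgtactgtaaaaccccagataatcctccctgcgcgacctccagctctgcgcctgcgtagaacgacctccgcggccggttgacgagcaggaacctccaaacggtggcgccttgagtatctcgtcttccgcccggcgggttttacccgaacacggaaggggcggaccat
Ndufc2: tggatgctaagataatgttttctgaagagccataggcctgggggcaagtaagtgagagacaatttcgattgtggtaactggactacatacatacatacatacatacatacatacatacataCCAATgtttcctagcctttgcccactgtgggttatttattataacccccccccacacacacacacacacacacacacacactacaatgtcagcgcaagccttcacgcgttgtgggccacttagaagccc
Ndufs3: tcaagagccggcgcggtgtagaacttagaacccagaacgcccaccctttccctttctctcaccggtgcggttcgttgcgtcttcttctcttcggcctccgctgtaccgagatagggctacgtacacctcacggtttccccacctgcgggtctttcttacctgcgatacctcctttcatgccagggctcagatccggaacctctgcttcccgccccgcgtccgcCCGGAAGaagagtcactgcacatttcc
Ndufs5: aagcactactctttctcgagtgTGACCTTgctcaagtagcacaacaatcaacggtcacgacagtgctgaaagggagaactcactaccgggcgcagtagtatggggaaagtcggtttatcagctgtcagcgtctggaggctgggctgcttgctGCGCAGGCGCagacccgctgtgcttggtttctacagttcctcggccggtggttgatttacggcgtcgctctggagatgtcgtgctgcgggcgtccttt

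The capitals in Ndufc2 are a CCAAT box at position -129 from the start. In Ndufs3 they are the ETS motif CCGGAAG, at position -27, and in Ndufs5 the AAGGTCA element bound by oestrogen-related receptors, read on the other strand, and the NRF1 motif. These factors are known regulators of genes for mitochondrial proteins. Over the whole 300-base windows, the NRF1 motif was in 7 of the 34 complex I windows (20.6%) and in 4.6% of all 32851 windows. These 7 include both windows of Ndufa5, which overlap and hold the same match. The YY1 core ATGGCG was in 12 (35.3%), against 8.93% of all. Within the 250 bases before the start it was in 5 of the 34 windows (14.7%), against 5.73% of all. These 5 include both windows of Ndufa7, which overlap and share a match. ATGGCG also arises where a start codon is followed by an alanine codon. Such matches were not removed from either count, so the counts cannot tell them from other matches. CCGGAAG was in 4 (11.8%) against 8.86%, AAGGTCA in 2 (5.88%) against 4.72%, and CCAAT in 9 (26.5%) against 37.4%. The letters were searched on both strands, and no motif contains another. Neither the window of Ndufa12, the gene with the lowest difference, nor that of Ndufv1, among the 7 higher genes, held any of the 5. A match is a string of letters in this window and says nothing of binding in this muscle.

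The core subunits of the matrix arm were represented by 6 genes, with a median difference of 0.044, 5 positive and none past the test (smallest adjusted p = 0.87); 1 further core subunit was not analysed here. Ndufv1, which holds the flavin and the NADH site, read 12.05, 12.06 and 12.09 in controls and 12.19, 12.09 and 12.16 in the MLC-SOCS-3 group. MLC-SOCS-3 replicate 2 lay only just above control replicate 3, so the groups were barely apart, and the difference was 0.083 ± 0.06 (SE, adjusted p = 0.87). Ndufs3, part of the ubiquinone module, read 12.42, 12.36 and 12.42 in controls and 12.49, 12.44 and 12.50 in the other group. All 3 of the latter were higher, and the difference was 0.078 ± 0.06 (adjusted p = 0.87). Its second probe set gave 0.074 ± 0.06, with overlapping groups.

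The other 4 core genes differed by less than the range of their control replicates. For Ndufs1 the difference was slightly larger than the range over the MLC-SOCS-3 arrays, 0.053. Ndufs1, the large iron-sulphur subunit, read 12.49, 12.41 and 12.53 in controls and 12.50, 12.55 and 12.56 in MLC-SOCS-3. Control replicate 2 was the lowest, and the difference of 0.060 ± 0.06 was 0.028 without it. Ndufs8, an iron-sulphur subunit near ubiquinone, read 11.28, 11.17 and 11.27 in controls and 11.24, 11.29 and 11.28 in MLC-SOCS-3, again with control replicate 2 lowest. Ndufs7, which carries the cluster that hands electrons to ubiquinone, read 12.23, 12.10 and 12.20 in controls and 12.17, 12.13 and 12.23 in MLC-SOCS-3. Its difference was 0.0007, with an interval of -0.17 to 0.17. Ndufv2, an iron-sulphur subunit of the NADH module, read 12.05, 11.99 and 12.06 in controls and 11.97, 12.12 and 11.98 in MLC-SOCS-3, where replicate 2 was the highest of the 6 arrays.

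The 9 accessory subunits of the matrix arm held both the lowest differences and some of the most variable genes; their median was 0.028, with 5 positive and 4 negative. Ndufa12, a small subunit related in sequence to the assembly factor Ndufaf2, read 11.14, 11.09 and 10.92 in controls. On the arrays labelled MLC-SOCS-3 it read 10.72, 10.88 and 10.65. Every control was above every array of the other group, with MLC-SOCS-3 replicate 2 the closest to the controls. The mean was 11.05 ± 0.11 (SD, n = 3) in controls and 10.75 ± 0.12 (SD, n = 3) in MLC-SOCS-3, a 1.23-fold difference that the test did not call: -0.30 ± 0.09 (SE, interval -0.53 to -0.07, unadjusted p = 0.019, adjusted p = 0.81). The difference stayed between -0.36 and -0.25 when any array was left out. Ndufaf2, which holds the place of Ndufa12 during assembly, was at -0.020 ± 0.09.

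Ndufa12 lies on chromosome 10, some way after Apaf1, a scaffold of apoptosis with the largest positive difference of all 19938 genes (1.01). In RefSeq gene order 18 protein-coding genes lie between Apaf1 and Ndufa12. The neighbours of Apaf1 on that side were negative: Ikbip at -0.41, Slc25a3 at -0.56, Tmpo at -0.12 (groups overlapping) and Nedd1 at -0.29. Neither Apaf1 nor any of these neighbours passed the adjusted test. The measured genes after Nedd1 lay between -0.18 (Usp44) and 0.28 (Hal) until Ndufa12, and Nr2c1, next to Ndufa12, was at 0.0050. The other 2 complex I genes of chromosome 10, Ndufs7 and Ndufa4l2, were at 0.0007 and -0.079. The chromosome 10 segment was picked out after its values were known, and its part in the value of Ndufa12 was not tested.

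**Figure D3:**
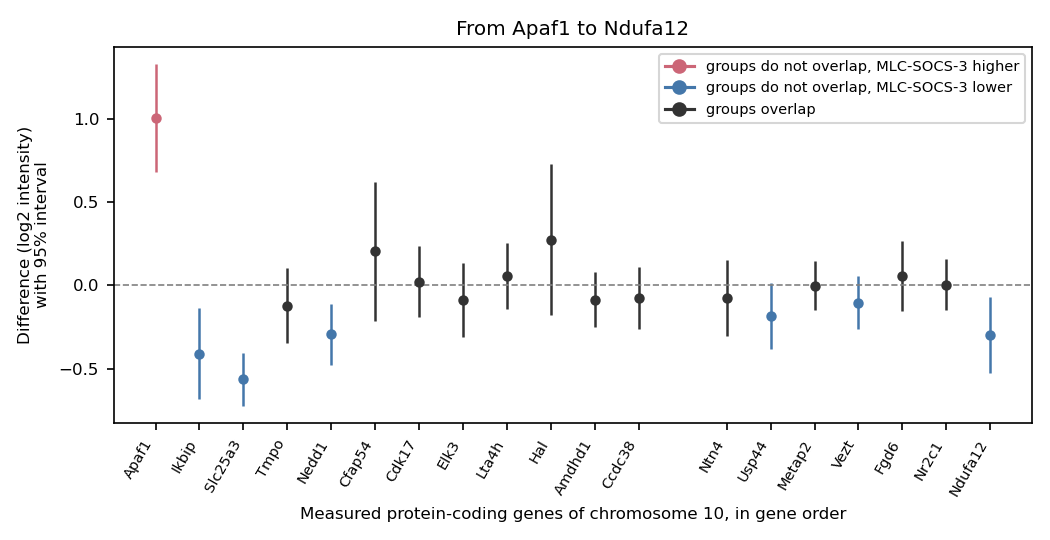
Difference between the groups (y axis, log2 intensity, MLC-SOCS-3 minus control, 95% interval) for the measured protein-coding genes from Apaf1 to Ndufa12 in gene order (x axis, not to genomic scale; a gap marks a gene with no probe set of its own). Near Apaf1, Ikbip is at -0.41, Slc25a3 at -0.56, Tmpo at -0.12 (groups overlapping) and Nedd1 at -0.29. The genes between Nedd1 and Ndufa12 lie on both sides of 0, from -0.18 (Usp44, groups apart) to 0.28 (Hal, groups overlapping). Ndufa12 is at -0.30.

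Ndufv3, a small subunit of the NADH module made in several splice forms, read 8.89, 8.58 and 8.62 in controls and 8.57, 8.55 and 8.56 in MLC-SOCS-3. Control replicate 1 alone was high, the other controls lay just above the MLC-SOCS-3 arrays, and the difference of -0.14 ± 0.10 had an adjusted p of 0.87. Without control replicate 1 it was -0.040. Ndufs4, whose loss causes Leigh syndrome in humans and a similar disease in mice, read 11.86, 11.84 and 11.91 in controls and 11.95, 11.98 and 12.01 in MLC-SOCS-3. The groups were apart by a small step, with a difference of 0.11 ± 0.06 (SE, interval -0.04 to 0.26, adjusted p = 0.86). Ndufs6, a zinc-binding subunit, read 11.23, 10.95 and 11.16 in controls and 11.43, 11.09 and 11.18 in MLC-SOCS-3. It had the widest range of all members over the MLC-SOCS-3 arrays, and its difference of 0.12 ± 0.12 lay within that spread. The remaining 5, Ndufa2, Ndufa5, Ndufa6, Ndufa7 and Ndufa9, differed by -0.040 to 0.050, with overlapping groups.

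The 9 accessory subunits of the proximal membrane arm had a median of 0.0059, with 6 positive and 3 negative. Ndufc2, a membrane subunit needed for the arm to form, read 12.14, 12.13 and 12.22 in controls and 12.31, 12.29 and 12.38 in MLC-SOCS-3. All 3 MLC-SOCS-3 arrays were higher than any control, and the replicates of each group lay close together. The mean was 12.16 ± 0.05 (SD, n = 3) in controls and 12.32 ± 0.05 (SD, n = 3) in MLC-SOCS-3, a 1.12-fold difference: 0.16 ± 0.06 (SE, interval 0.0033 to 0.32, unadjusted p = 0.047, adjusted p = 0.83). Leaving out any array kept it between 0.13 and 0.19. Its partner Ndufc1 was at -0.023, and its second probe set at -0.022.

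Ndufa1, an X-linked subunit essential for assembly, read 10.54, 10.52 and 10.55 in controls and 10.61, 10.88 and 10.59 in MLC-SOCS-3. The groups were apart, but MLC-SOCS-3 replicate 2 stood well above the rest, and the difference of 0.16 ± 0.10 (adjusted p = 0.86) was 0.066 without it. Ndufs5, a subunit on the intermembrane side held by paired cysteines, read 11.11, 11.09 and 11.10 in controls and 11.04, 11.14 and 10.90 in MLC-SOCS-3. Its controls were nearly identical while the MLC-SOCS-3 arrays spread over 0.25, with replicate 3 lowest, and the difference was -0.071 ± 0.08. A further probe set, which names both Ndufs5 and Ndufs5-ps, gave -0.035 ± 0.07, with overlapping groups. Ndufa11, a membrane protein related to import channel subunits, read 10.95, 10.92 and 10.85 in controls and 10.80, 10.93 and 10.79 in MLC-SOCS-3, with overlap at replicate 2. It differed by -0.068 ± 0.07 and its second probe set by -0.029. Ndufa3, Ndufa8, Ndufa10 and Ndufa13 lay between 0.0058 and 0.018, with overlapping groups. Ndufa10 has the fold of a nucleoside kinase, and Ndufa13 is also known as GRIM-19.

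The 9 accessory subunits of the distal membrane arm had a median of 0.020, with 6 positive and 3 negative. Ndufb3, a small membrane subunit, read 8.72, 8.47 and 8.64 in controls and 8.78, 8.80 and 8.78 in MLC-SOCS-3. Its MLC-SOCS-3 arrays agreed within 0.02 while the controls spread over 0.25, and the difference of 0.17 ± 0.08 (SE, interval -0.03 to 0.38) was the largest positive one of the 36 (adjusted p = 0.84). Ndufb6, another membrane subunit, read 12.21, 12.15 and 12.24 in controls and 12.27, 12.32 and 12.32 in MLC-SOCS-3. The groups were apart by less than the range of the controls, with a difference of 0.10 ± 0.06 (adjusted p = 0.86).

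Ndufb10, a cysteine-rich subunit of the intermembrane side, read 9.70, 9.73 and 9.68 in controls and 9.63, 9.88 and 9.80 in MLC-SOCS-3. Its replicates of the latter group lay on both sides of the controls. Ndufb11, an X-linked membrane subunit, read 12.10, 12.09 and 12.11 in controls and 12.17, 12.13 and 12.09 in MLC-SOCS-3, a difference of 0.029 ± 0.06. Its second, dimmer probe set gave 0.070 ± 0.06, with the groups apart. Ndufb2, Ndufb5, Ndufb7, Ndufb8 and Ndufb9 differed by -0.014 to 0.020. Ndufb4 shares its probe sets with its copy Ndufb4b and was therefore no member; those probe sets gave 0.063 ± 0.08 and 0.047 ± 0.07.

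Ndufab1, the mitochondrial acyl carrier protein, which sits in complex I and also serves mitochondrial fatty acid synthesis, read 11.44, 11.46 and 11.51 in controls and 11.50, 11.56 and 11.55 in MLC-SOCS-3. Control replicate 3 lay between the MLC-SOCS-3 arrays, and the difference was 0.067 ± 0.06 (adjusted p = 0.88). The second probe set gave 0.081 ± 0.06. Of 5 genes with a second probe set, each had the same sign in both.

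Among the 36 genes, 2 are named like subunits but are not counted in complex I. Ndufa4, now assigned to cytochrome c oxidase, read 13.33, 13.28 and 13.34 in controls and 13.34 on all 3 MLC-SOCS-3 arrays, a difference of 0.024 ± 0.06. Ndufa4l2, its relative known to be induced by low oxygen, read 7.53, 7.32 and 7.45 in controls and 7.37, 7.37 and 7.32 in MLC-SOCS-3. It differed by -0.079 ± 0.08, with overlapping groups. Without these 2 genes the median difference of the remaining 34 was 0.019.

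The complex I genes varied little from array to array, and many of them were lowest on the same array. Control replicate 2 was the lowest of the 6 arrays for 23 of the 36 genes (63.9%), against 19% of all genes and 31% of those with a mean over 10, and only 5 complex I genes lay above their own 6-array mean on it. The median deviation on it was -0.059, against -0.029 for the 1407 genes with a mean over 10. Control replicate 1 was the highest for 13 of the 36 (36.1%), against 25.3% of all genes and 20.1% of those with a mean over 10. Its median deviation was 0.027, against 0.029 for all genes and 0.011 for those with a mean over 10. The MLC-SOCS-3 arrays had medians of -0.0053, 0.024 and 0.010. Without control replicate 2 the median difference of the 36 genes was 0.0014, with 19 positive, and Ndufs7 and Ndufs8 turned negative. Without control replicate 2, 8 members were higher with no overlap and 7 were lower. The shares were 7.91% and 14.6% of all genes, and 10.6% and 14.2% of those with a mean over 10. With control replicate 1 or control replicate 3 left out instead, 2 were lower.

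**Figure D4:**
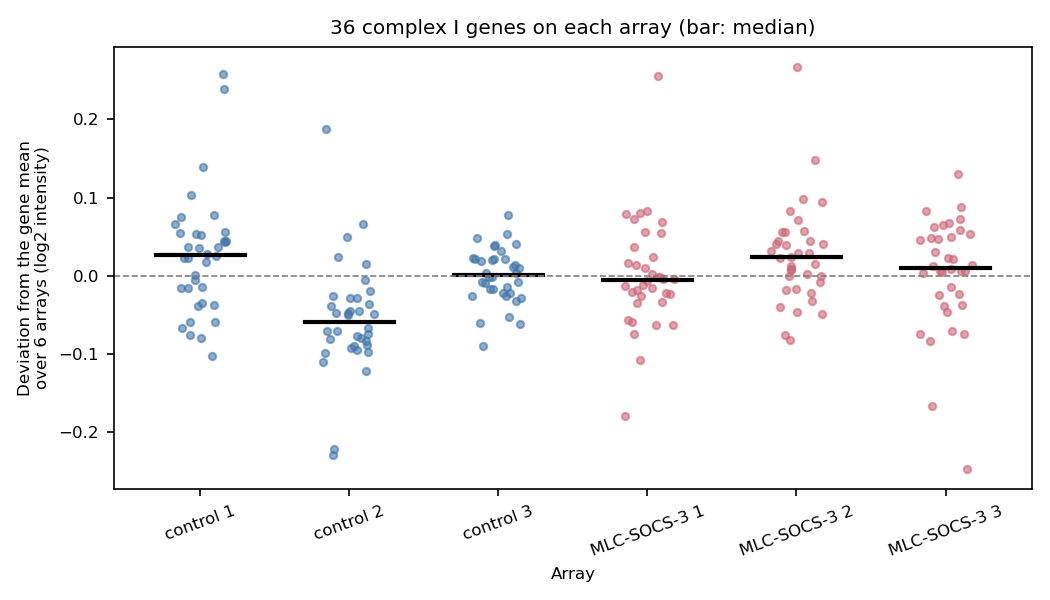
Deviation of each of the 36 genes from its own mean over the 6 arrays (y axis, log2 intensity) on each array (x axis); points are genes and the bar is their median. The median on control replicate 2 is -0.059, the lowest of the 6, and on the other 5 arrays it lies between -0.0053 and 0.027.

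The assembly factors, which build complex I and are not part of it, were described as a list of 20, of which 18 were measured. None had an adjusted or unadjusted p under 0.05 in limma. Their median difference was 0.074, with 17 positive and 1 negative. Among all genes 43.8% were positive, and among those above the median probe set 50.5%. Foxred1, an oxidoreductase-like factor, read 8.12, 8.11 and 8.11 in controls and 8.33, 8.18 and 8.28 in MLC-SOCS-3. The groups were apart, and the difference was 0.15 ± 0.07 (SE, adjusted p = 0.83). Acad9, a factor of the membrane-arm assembly complex, read 9.32, 9.23 and 9.40 in controls and 9.45, 9.43 and 9.42 in MLC-SOCS-3. Its groups were also apart, by a small step, and the difference was 0.11 ± 0.07. Foxred1 and Acad9 were the only 2 of the 18 with groups apart, both higher. The same held for 4.52% of all genes and 6.02% of those above the median probe set. Nubpl, which delivers iron-sulphur clusters, lay near the median probe set and read 5.80, 5.28 and 5.95 in controls and 6.11, 6.03 and 5.84 in MLC-SOCS-3. Control replicate 2 was well below the rest, and the difference was 0.32 ± 0.19.

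Control replicate 2 was the lowest of the 6 arrays for 13 of the 18 assembly factors (72.2%), against 19% of all genes and 23.5% of those above the median probe set. Without it 15 of the 18 were positive and their median was 0.051. Of the mitochondrially encoded subunits only ND3 had a probe set of its own. It read 13.62, 13.71 and 13.73 in controls and 13.72, 13.86 and 13.66 in MLC-SOCS-3, with overlapping groups and a difference of 0.061 ± 0.08.

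**Figure D5:**
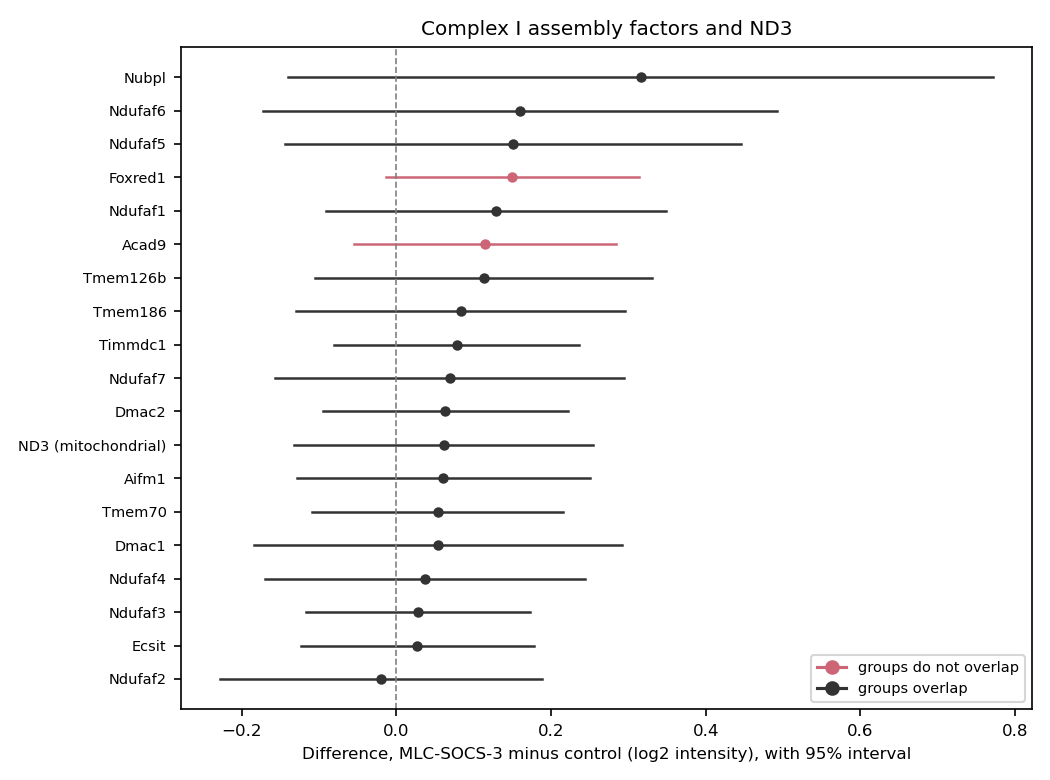
Difference between the groups (x axis, log2 intensity, MLC-SOCS-3 minus control) with its 95% limma interval for 18 complex I assembly factors and mitochondrially encoded ND3. Point estimates are positive for all but Ndufaf2, and every interval includes 0.

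Markers of fibre type and of other cells were measured beside these genes. The 10 slow and oxidative fibre genes had a median difference of -0.10, with 9 negative and none past the test; their mean level was 8.63 to 8.83 in controls and 8.55 to 8.72 in MLC-SOCS-3. Adipocyte genes (7 of 8 listed measured) had a mean level of 6.50 to 6.54 in controls and 6.67 to 6.89 in MLC-SOCS-3, with a median difference of 0.17, 7 of 7 positive and 1 at an unadjusted p under 0.05. Macrophage genes (8 of 8) ranged from 6.85 to 7.20 and from 7.01 to 7.39, with a median difference of 0.092, 7 positive and 1 at an unadjusted p under 0.05. Connective tissue genes (8 of 8) ranged from 9.84 to 9.90 and from 9.87 to 10.15, with a median difference of 0.13, 7 positive and 0 at that p. Endothelial (8 of 8), Schwann cell (5 of 8) and smooth muscle genes (8 of 8) had median differences of -0.017, -0.064 and -0.018, with 3, 0 and 4 positive. The 12 skeletal muscle genes had a median difference of -0.0125, with 2 positive and 10 negative. Among all 19938 genes 43.8% were positive, and 1.36% were higher at an unadjusted p under 0.05 in limma. No value in the table is 0, and the part of these cell types in the complex I values was not tested.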

How the data were processed

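RNA of 6 tibialis anterior samples was measured on 1 Affymetrix array each. The deposited values are log2 intensities. Per the submitters' processing notes, the authors ran RMA in Affymetrix Expression Console, without a version in the sources used here. They were used as deposited (array medians 5.98 to 6.04). The table has no counts or detection calls, so the number of arrays limits the precision. At most 36 of 35557 values were identical between any pair of arrays.

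Platform annotation, possibly outdated, covers 23410 probe sets, 21789 with 1 symbol, 1621 with several; 12147 are unnamed here. Entrez identifiers updated 21698 through the GRCm38.p6 gene table. Groups were compared by limma 3.58.1 in R 4.3.3 (lmFit, eBayes, two-sided), adjusted over all probe sets at 0.05; the script was tested on simulated data. The members and lists were chosen with earlier results of these data known. Values on every array are printed for core subunits, genes with an unadjusted p under 0.05 or groups apart, up to 4 genes per other role by p, and the 3 with the widest range in each group. Protein sequences were not used here. Same-numbered arrays did not deviate together (r = -0.103, -0.067 and -0.145 over 17778 probe sets), so the numbers were not taken as pairs.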

Additional observations from a re-analysis of the deposited data

How the results depend on the processing

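No complex I gene and no assembly factor passed the adjusted threshold in any setting, and the lowest adjusted p of the 21 genes printed by array was 0.68. The number of complex I genes at an unadjusted p under 0.05 and higher was 1 as reported, 0 with quantile normalization, 3 with robust moderation and a mean-variance trend, and 0 with the replicate block; it lay between 0 and 1 when an array was left out. The number lower was 1 in every setting with all 6 arrays and lay between 0 and 1 with an array left out. Ndufa12 had an unadjusted p above 0.05 when control replicate 1 or 2, or replicate 1 or 3 of MLC-SOCS-3, was left out, and Ndufc2 whichever array was left out; fewer samples enter those fits. The median difference was 0.039 with each array centred on its median and 0.012 with quantile normalization, and 0.0014 to 0.032 with an array left out, lowest without control replicate 2. It moved by over 1.5 times without control replicate 1 (0.032) as well. Of the 21 genes, 18 kept their sign in every setting. Ndufv2 was 0.012 with centring, and -0.056 to 0.020 with an array left out; Ndufs7 lay between -0.038 and 0.029 and Ndufs8 between -0.0077 and 0.048. The cause of these shifts was not tested. With 3 arrays per group and no detection calls, differences of about the SE of 0.067 (median over the complex I genes) or smaller cannot be resolved. Larger ones were mostly not resolved either. Ndufs4, at a difference of 0.11, had a limma interval of -0.04 to 0.26. Among the complex I genes, only the intervals of Ndufa12 and Ndufc2 left out 0.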
